A study of Mus musculus with 98 samples.

Results

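CapFb2a is one of 2 subtypes into which the authors divided the capsular fibroblasts CapFb2 of the mouse thymus, the other being CapFb2b. Its members are the cells that carry this name in the deposited annotation of the nonepithelial thymic stroma (NETS), with no change or new clustering here. They number 1125 of 36208 NETS cells, which carry 19 subtype names, among them further capsular (CapFb) and medullary (MedFb) fibroblasts, vascular smooth muscle (VSM), pericytes (Pc) and neural crest (NC). All mice were wild type (WT) C57BL/6. NETS were sorted as live Ter119-CD45-EpCAM- cells on embryonic days E12.5 and E13.5 (1 library each), and at E16.5, at birth (P0) and at 4 weeks of age (W4), with 2 libraries each. The thymi of E12.5 and E13.5 were pooled from 2 litters, and those of the later ages came from 2 thymi per time point, so p-values measure the spread between libraries. Transcripts were counted as unique molecular identifiers (UMIs), 1 for each captured transcript.

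The thymic capsule is a sheet of connective tissue around the organ, laid down by fibroblasts that arise from the neural crest of the pharyngeal region. Type I collagen, its main fibre, is made as a procollagen of α1 and α2 chains, whose ends are cut off outside the cell by ADAMTS2 and BMP1 before the molecules assemble and are joined by lysyl oxidases. Fibroblasts that hold smooth muscle actin and its partners can pull on the matrix they make, and in many organs such cells lie near vessels or in tissue under tension. Notch signals received by NOTCH3 and carried out by HEY and HES factors are best known from the mural cells of vessels.

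Each library held 38 to 309 CapFb2a cells with 624992 to 5237486 UMIs in all, and the median depth was 12431 to 16529.5 UMIs per cell. The UMIs of all CapFb2a cells of a library were summed and are given as CPM, the UMIs of a gene per 1000000 UMIs, and values are listed below in the order E12.5, E13.5, both E16.5 libraries, both P0 libraries and both W4 libraries. Between the replicates of E16.5 the chi-square per gene averaged 1.69, above but near the sampling noise of 1, so they were kept as 2 libraries and also summed as 1. It was 8.83 at P0 and 2.33 at W4. For the same difference it grows with the UMIs counted, so these values do not compare the ages directly. The libraries held 1383412 and 1776165 UMIs at E16.5, 5237486 and 3023990 at P0, and 624992 and 1321763 at W4. The share of CapFb2a cells with a UMI of a Y-linked gene was 1.89% at E12.5, 0% at E13.5 (where no other NETS cell held one either), 52.1 and 40.8% at E16.5, 2.59 and 65.5% at P0, and 55.3 and 60.98% at W4. It thus moved with the step to E16.5 and differed between the P0 replicates, and its part in the changes described below was not tested. No CapFb2a barcode was found in more than 1 library, while the E16.5 libraries shared 14 barcodes of other cells.

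Averaged over all libraries, the markers of the label were highest in CapFb2a, by a margin within the spread over libraries. *Adamts2*, which encodes the procollagen N-proteinase, averaged 295 ± 186.9 CPM (SD, n = 8 libraries) in CapFb2a and 223 ± 207 in CapFb2b, the next of the 19 subtypes. *Col1a1* averaged 8503 ± 5653 CPM and *Col1a2* 8357 ± 5125, again first of 19, with CapFb4 next at 8399 ± 4797 and 8118 ± 4417. The microfibril gene *Mfap4* (1460 ± 714 CPM) and biglycan (*Bgn*, 2338 ± 1318 CPM) were also first, while the pan-fibroblast genes *Pdgfra* and *Lum* each ranked 10 and *Dcn* ranked 8. These are the genes of the cells that were clustered, so the ranks describe the label and were not tested. By age, *Adamts2*, *Col1a1*, *Col1a2*, *Mfap4* and *Bgn* summed to 2959 CPM at E12.5 against 2676 in CapFb2b. At E13.5 they were lower in CapFb2a (5529 against 5698), and at E16.5 the subtypes overlapped (18931 to 19998 against 18836 to 19721). The lead was clear at P0 (34749 to 38670 against 19338 to 26004) and W4 (22395 to 24389 against 17247 to 19431).

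Of other cells, the thymic epithelial cell (TEC) markers *Epcam*, *Foxn1* and *Krt5* averaged under 1 CPM, and the summed level of 6 TEC markers was 0.723 to 9.08 CPM by library. The sum of 8 endothelial markers was 26.5 to 52.8 CPM, below the 47.9 to 88.7 CPM of CapFb2b, and that of 8 mesothelial markers was 11.4 to 104, also below CapFb2b (40.5 to 150.7). The 8 mural markers summed to more than in CapFb2b at every age (416 to 962 CPM against 118.8 to 331 over all libraries). Markers of further kinds of cell went above CapFb2b at some ages. The 6 neural crest and glia markers summed to 17.7 CPM at E12.5 against 21.1 in CapFb2b and to 90.4 at E13.5 against 12.7, and 1 CapFb2a cell held 86.2% of the *Fabp7* UMIs of E13.5. The 8 medullary fibroblast markers summed to 2747 to 2811 CPM at W4 against 1462 to 1735 in CapFb2b, after 727 to 912 CPM at P0 in CapFb2a. Haematopoietic markers (8 genes) summed to 3.30 to 72.0 CPM, highest at W4. Haemoglobin genes ranged from 0.413 CPM at E12.5 to 1661 at W4, and a single cell of E16.5 replicate 2 held 95.6% of that library's *Hbb-bs* UMIs. Leaving out the 12 CapFb2a cells with 10 or more UMIs of *Hbb-bs* or *Col2a1* changed the number of genes called over age from 5200 to 5196. With 2000 UMIs drawn from each cell, *Col2a1* was found in 10.7% of CapFb2a cells of P0 replicate 1. In that library it was found in 11.2% of CapFb2b, 12.1% of VSM and 11.4% of endothelial cells, against 0 to 1.03% in P0 replicate 2. Leaving out 12 cells does not remove such a signal, and its part in the differences between the P0 replicates was not tested.

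**Figure D1:**
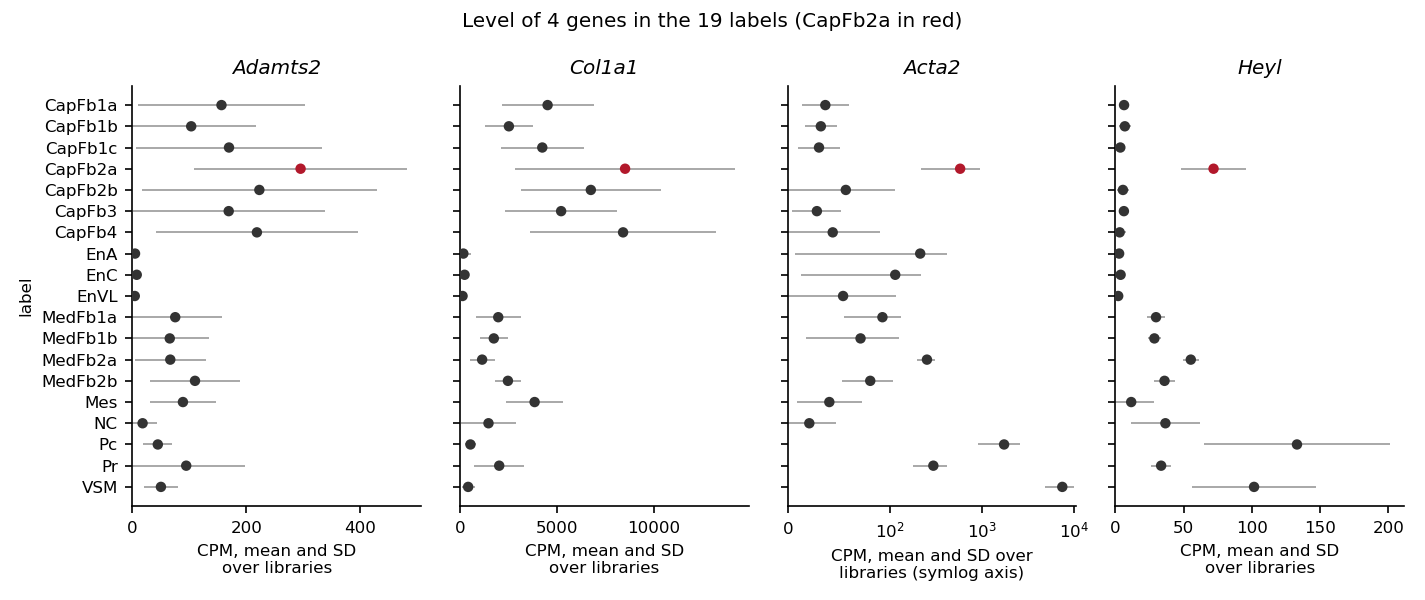
Mean level in CPM (points) with its SD over libraries (bars) of *Adamts2*, *Col1a1*, *Acta2* and *Heyl* in each of the 19 subtypes, CapFb2a in red. CapFb2a lies highest for *Adamts2* and *Col1a1*, and below VSM and Pc for *Acta2* (577 ± 362 CPM, on a symlog axis) and for *Heyl* (71.9 ± 23.9 CPM).

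The highest ratios of CapFb2a over CapFb2b were those of contractile and Notch pathway genes rather than of collagens. Among 3467 genes at 50 CPM or more in the higher of both subtypes, 542 differed in the same direction in all 8 libraries, 320 of them higher in CapFb2a. The highest mean log2 ratio of CPM + 1 was that of *Heyl*, a Notch target and transcriptional repressor, at 3.61 ± 0.75 (SD, n = 8). The actin-binding calponin relative *Tagln* followed with 3.51 ± 1.22, and smooth muscle α-actin (*Acta2*) with 3.26 ± 1.31. *Notch3* (2.15 ± 0.81), the soluble guanylate cyclase subunit *Gucy1b1* (2.57 ± 1.19), the forkhead factor *Foxs1* (2.53 ± 0.47) and connective tissue growth factor (*Ctgf*, 2.43 ± 1.06) were among the 15 highest, as was matrix Gla protein (*Mgp*, 2.02 ± 1.30), an inhibitor of calcification. The lowest were *Dpp4* (-3.10 ± 1.45), which encodes CD26, *Ly6a* (-2.56 ± 2.16), which encodes Sca-1, the ferritin receptor *Scara5* (-2.55 ± 1.10), the stathmin relative *Stmn2* (-2.48 ± 2.20) and *Wt1* (-2.46 ± 1.37). As CapFb2a was separated from CapFb2b by clustering these counts, none of these differences was tested.

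*Acta2* was at 618, 392, 969, 857, 984, 616, 30.4 and 147.5 CPM in CapFb2a and at 186.95, 46.5, 22.5, 44.0, 83.0, 33.9, 8.77 and 28.1 in CapFb2b. Each of the 8 libraries was higher in CapFb2a, most clearly at E16.5 and P0, and both W4 libraries stood below all earlier ones of CapFb2a. *Tagln* was at 693, 665, 765, 622, 703, 625, 60.8 and 172.5 CPM in CapFb2a against 206, 79.6, 15.7, 24.0, 48.7, 40.7, 10.8 and 21.0 in CapFb2b, again higher in CapFb2a in each library and lowest in both W4 libraries. *Heyl* was at 71.4, 45.8, 88.2, 96.3, 92.4, 91.9, 52.8 and 36.3 CPM against 15.3, 5.64, 3.40, 5.99, 3.94, 5.28, 2.39 and 2.03, so that the subtypes did not overlap, and *Notch3*, a receptor of the same pathway, was at 76.8, 54.8, 102, 108.1, 57.3, 89.9, 81.6 and 46.9 against 38.3, 26.1, 19.3, 21.7, 11.5, 17.7, 6.38 and 6.84. The Notch ligand *Jag1* was at 330.2, 174.7, 105, 109.8, 102, 102.5, 52.8 and 47.7 CPM in CapFb2a and at 66.8, 37.5, 22.5, 24.4, 18.0, 17.7, 27.9 and 20.01 in CapFb2b.

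The promoters of *Acta2* and *Myl9*, which fell between P0 and W4 (below), are shown here because they held a match to the motif searched. Of the 12 genes listed as tendon and contractile, 8 had a window in RefSeq (build GRCm38.p6), and the 250 bases before the transcription start were searched for a CArG box, the site bound by serum response factor. It was taken as CC, 6 bases of which at most 1 is C or G, and GG, a form that reads alike on both strands. Capitals mark the matches, and all other bases are in lower case, 5′ to 3′ on the strand of the gene.
*Acta2* (chr19:34255374-34255623, minus strand): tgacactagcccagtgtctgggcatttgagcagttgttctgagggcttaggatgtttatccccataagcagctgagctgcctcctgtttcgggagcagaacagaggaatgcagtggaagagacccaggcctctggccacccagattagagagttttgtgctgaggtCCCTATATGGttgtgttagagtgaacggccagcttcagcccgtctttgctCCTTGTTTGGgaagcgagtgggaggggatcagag
*Myl9* (chr2:156775214-156775463, plus strand): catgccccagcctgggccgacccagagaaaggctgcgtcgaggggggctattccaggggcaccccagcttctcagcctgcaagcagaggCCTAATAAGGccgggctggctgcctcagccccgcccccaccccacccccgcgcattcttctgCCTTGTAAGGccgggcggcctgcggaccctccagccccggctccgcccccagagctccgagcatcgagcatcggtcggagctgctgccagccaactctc
Both windows held 2 matches, with the nearer one 34 bases before the start of *Acta2* and 99 bases before that of *Myl9*. The windows of the other 6 genes (*Cnn1*, *Tpm2*, *Tnc*, *Postn*, *Thbs4* and *Tnmd*) held none, although each of these but *Thbs4* also fell from P0 to W4, and 2823 of 32851 mouse windows (8.59%) held at least 1. A match describes these letters only.

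From E13.5 on nearly all CapFb2a cells held *Col1a1*, so those with a contractile transcript mostly held collagen as well. To compare libraries at 1 depth, 2000 UMIs were drawn from each cell, and every CapFb2a cell had that many. *Col1a1* was then found in 81.8% of CapFb2a cells at E12.5, 96.1% at E13.5, 98.3 to 98.9% at E16.5 and 100% at P0 and W4, so that from E16.5 on a joint share is little else than the share with *Acta2*. At E12.5 and E13.5, 38.4 and 30.2% of CapFb2a cells then held a UMI of *Acta2*, and 29.6 and 29.5% held *Acta2* and *Col1a1* together. The share with both was 52.1 and 46.7% at E16.5, 44.7 and 40.2% at P0, and 10.5 and 8.54% at W4. In VSM cells the joint share was above that of CapFb2a at the early ages, 57.6% at E12.5 and 56.7% at E13.5, and was 10.5 to 12.2% at E16.5, 14.7 to 39.5% at P0 and 7.59 to 13.6% at W4. In CapFb2b it was 3.16 to 13.3%, and in endothelium, which should lack both, 0.234 to 4.29%. At W4 *Acta2* alone was found in 10.5 and 8.54% of CapFb2a cells and in 8.74 and 8.43% of endothelial cells, and *Tagln* in 7.89 and 12.2% against 16.3 and 11.9%. In CapFb2b cells of the same libraries the shares were lower, at 3.36 and 3.72% for *Acta2* and 0.671 and 3.31% for *Tagln*. The W4 shares thus lay slightly above those of endothelium, except for *Tagln* in replicate 1, which was below. All of them stood above those of CapFb2b. Median depths were 16529.5 and 15326 UMIs in CapFb2a, 17003 and 16408.5 in CapFb2b and 6492 and 5713 in endothelium. *Myh11*, the smooth muscle myosin that defines VSM, was found in 0 to 5.83% of CapFb2a cells and in 11.1 to 90.1% of VSM cells. At E12.5 and E13.5 only 15.3 and 11.1% of VSM cells held it. The mural marker *Rgs5* was found in 50.3 and 14.7% of CapFb2a cells at E12.5 and E13.5. Its share there was 17.0 to 25.8% at E16.5, 27.8 to 32.0% at P0 and 2.63 to 8.54% at W4. In VSM it was 59.3 and 63.3% at E12.5 and E13.5 and 82.8 to 99.4% later, and in CapFb2b 7.59% at E12.5 and 2.94 to 6.04% later. Without thinning, 63.5, 50.4, 54.3, 54.2, 51.1 and 44.3% of CapFb2a cells from E12.5 to P0 held at least 5 UMIs of *Acta2* and *Tagln* together and at least 5 of *Col1a1*, against 7.89 and 9.76% at W4 and 1.34 to 13.9% in CapFb2b. In VSM this share was 88.1 and 72.2% at E12.5 and E13.5, and 0.987 to 31.4% later.

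**Figure D2:**
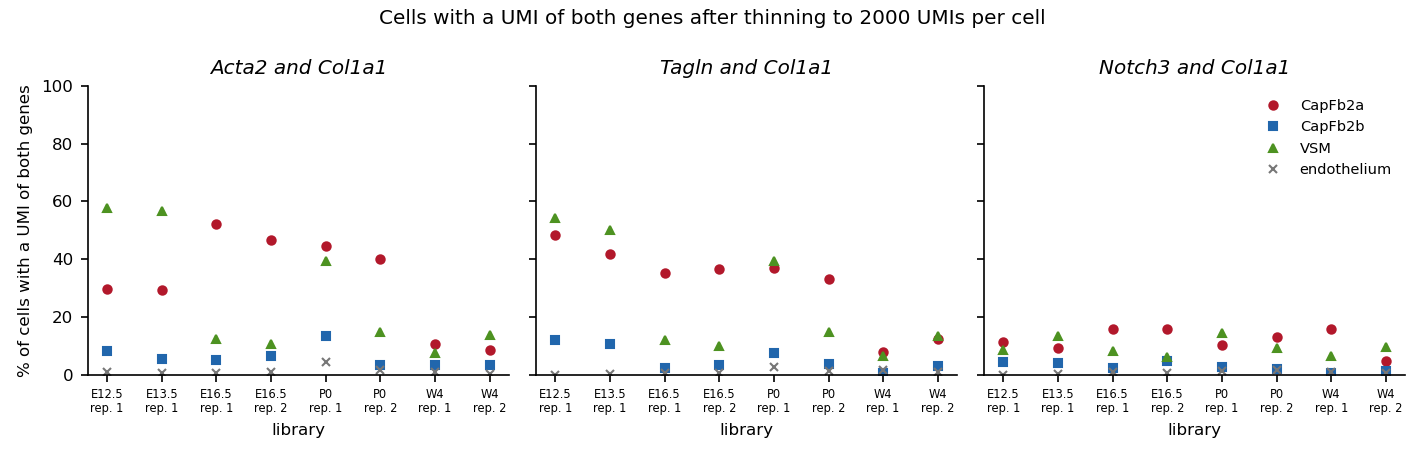
Percent of cells with a UMI of *Col1a1* and of *Acta2* (left), *Tagln* (middle) or *Notch3* (right) after each cell was thinned to 2000 UMIs, for each library. From E16.5 to P0 the CapFb2a cells with both *Acta2* and *Col1a1* make 40.2 to 52.1%, above CapFb2b in every library, and at W4 they fall to 8.54 and 10.5%.

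The share of CapFb2a among NETS differed between ages and between replicates of P0. It was 7.96% at E12.5 (159 of 1997 cells, 95% Wilson interval 6.85 to 9.23%), 2.30% at E13.5, 1.63 and 1.82% at E16.5, 6.59 and 3.40% at P0, and 1.48 and 2.51% at W4. The edgeR quasi-likelihood test over the 5 ages called it (adjusted p = 0.0201), as it did 16 of 19 subtypes (84.2%). That call was lost without E16.5 replicate 1 (adjusted p = 0.120) or 2 (0.119), and an exact permutation test of the one-way F on the shares gave p = 0.169. Intervals cover counting error only.

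Within CapFb2 the division between its subtypes was closer in replicates. CapFb2a made up 40.1% of CapFb2 cells at E12.5, 16.6% at E13.5, 30.03 and 30.5% at E16.5, 56.1 and 55.1% at P0, and 20.3 and 25.3% at W4. CapFb2a thus outnumbered CapFb2b only in both P0 libraries. The exact permutation test over ages gave p = 0.00476 (0.00714 adjusted over 3 such tests), where 0.00238 is the smallest p the design allows, and p stayed between 0.00952 and 0.0286 without any single library. Both W4 libraries lay below those of E16.5, which lay below those of P0.

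**Figure D3:**
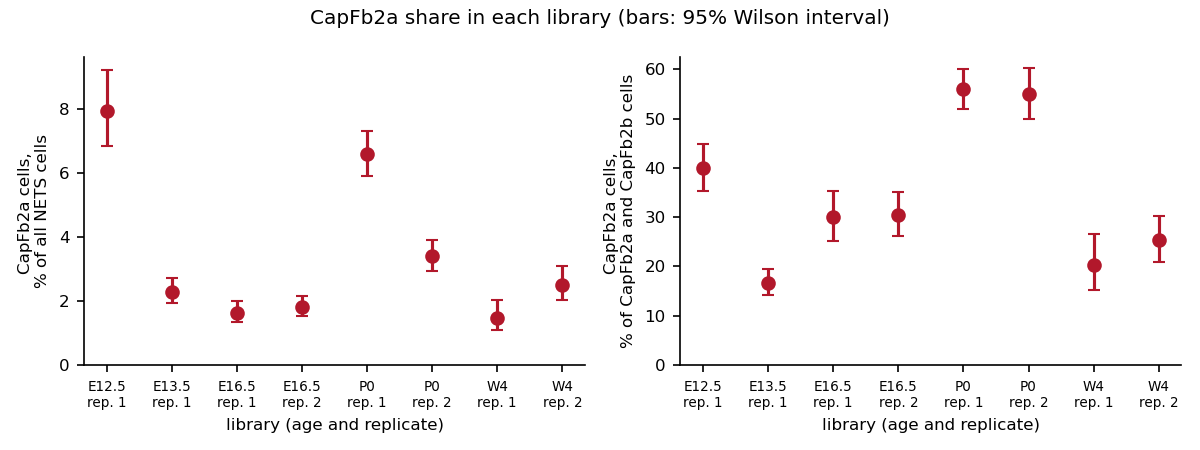
CapFb2a cells as a percent of all NETS cells (left) and of CapFb2a and CapFb2b cells together (right) in each library, with 95% Wilson intervals. The P0 libraries differ on the left (6.59 and 3.40%) and lie side by side on the right (56.1 and 55.1%), where they are the highest.

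At their full depth 27.0, 33.3, 22.3, 20.8, 16.8, 10.8, 5.26 and 9.76% of CapFb2a cells carried a transcript of the proliferation genes *Mki67* or *Top2a*, and after thinning to 2000 UMIs far fewer did. They were then 4 of 159 cells at E12.5 (2.52%), 17 of 129 at E13.5 (13.2%), 4 of 94 and 5 of 120 at E16.5 (4.26 and 4.17%), 10 of 309 and 6 of 194 at P0 (3.24 and 3.09%), and 0 of 38 and 0 of 82 at W4, which allow shares of cells with a UMI at this depth of up to 9.18 and 4.48% (upper ends of the 95% Wilson intervals) and set no limit at full depth. The replicates of E16.5 and P0 lay side by side, E13.5 stood above every other library, and the exact permutation test gave the smallest p it can, 0.00238 (0.00714 adjusted over 3 tests). With so few cells the 95% Wilson intervals were wide, at 1.67 to 10.4% and 1.79 to 9.38% at E16.5 and 8.39 to 20.1% at E13.5. This p thus rests on replicates much closer to each other than their counting error, and E13.5 had 1 library only. With cells thinned to 1000 UMIs p was 0.140. In CapFb2b the shares were 5.91, 7.26, 3.65, 8.39, 4.98, 1.90, 0.671 and 0.826%. The annotation also holds a subtype of proliferating cells (Pr), with 373, 1301, 812, 965, 394, 419, 29 and 29 cells by library. It was made from the same counts and is not part of CapFb2a. The shares and their test thus describe only the cells left under the name CapFb2a, and do not measure how many such fibroblasts divided at each age. The median UMIs of a CapFb2a cell relative to a CapFb2b cell of the same library gave log2 ratios of 0.21, 0.22, -0.29, -0.23, 0.20, -0.00, -0.04 and -0.10, which did not pass the exact test over ages (p = 0.05).

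Over the 5 ages 5200 of 11686 genes tested in CapFb2a changed (44.5%, edgeR quasi-likelihood F test, adjusted p under 0.05). Of all genes tested 2925 (25%) differed between E16.5 and the mean of E12.5 and E13.5, 1813 higher (15.5%) and 1112 lower (9.52%). Between E16.5 and P0 291 changed (2.49%), 231 higher (1.98%) and 60 lower (0.513%), and between P0 and W4 2284 changed (19.5%), 1192 higher (10.2%) and 1092 lower (9.34%). The median log2 fold change of all genes was 0.01, 0.02 and -0.03 in the 3 steps, and neighbouring steps share libraries. The step to P0 rests on the E16.5 replicates: 25 genes were called without replicate 1, 10 without replicate 2 and 40 with both summed, against 477 without P0 replicate 1 and 1030 without P0 replicate 2. The step to E16.5 fell to 1438 calls without E12.5, 1647 without E16.5 replicate 1 and 1532 without replicate 2, and the step to W4 to 1370 without W4 replicate 1 and 1021 without replicate 2. In what follows, the values in parentheses are log2 fold changes ± SE from this fit with their adjusted p. Calls of single genes to P0 mostly rest on having both E16.5 libraries as well. The lists themselves were not tested, and their counts are to be read against these percentages of all genes.

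The genes of type I collagen rose up to birth and fell after it. *Col1a1* was at 925, 2391, 7828, 8250.4, 17225, 15625, 8555 and 7224 CPM, so that both P0 libraries stood above all others. It rose to E16.5 (2.64 ± 0.11, adjusted p = 8.80e-08), rose to P0 (1.08 ± 0.10, adjusted p = 7.14e-04) and fell to W4 (-1.04 ± 0.10, adjusted p = 8.40e-05). *Col1a2* took the same course at 854, 1875, 7474, 8061, 15062, 14392, 9989 and 9147 CPM. The calls of both genes to P0 were lost without either E16.5 library. *Col3a1*, the chain of type III collagen, was at 1106, 3474, 9123, 9810.5, 16181, 15149, 17163 and 16020.3 CPM and did not pass the test from P0 to W4 (0.10 ± 0.09, adjusted p = 0.473), while *Col11a1*, of the minor fibril collagen XI, fell from 148.9 and 98.5 CPM at P0 to 4.80 and 3.03 at W4 (-5.06 ± 0.41, adjusted p = 1.97e-05). Of the 11 genes listed, 8 rose to E16.5, where 15.5% of all genes did (median log2 fold change 2.48). To P0 4 rose (1.98% of all genes, median 0.75), and to W4 1 rose and 6 fell (10.2 and 9.34% of all genes, median -0.68). The gene that rose to W4 was *Col5a3*, from 73.1 and 109 CPM at P0 to 408 and 244 (1.84 ± 0.25, adjusted p = 6.88e-04). Summed, the 11 genes were below CapFb2b at E13.5 (8695 against 9223 CPM) and E16.5 (26002 to 27704 against 31783 to 32852). They were above it at E12.5 (3410 against 3235) and P0 (47229 to 50941 against 32416 to 41752). At W4 they were above it as well (34270 to 38044 against 27756 to 30456).

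Genes that process procollagen mostly rose to E16.5 and went both ways to W4. *Adamts2* was at 41.3, 53.0, 229.9, 213, 396, 434, 498 and 496 CPM, rose to E16.5 (2.45 ± 0.14, adjusted p = 5.99e-07) and to P0 (0.95 ± 0.12, adjusted p = 0.00227), and did not pass the test to W4 (0.28 ± 0.12, adjusted p = 0.126). *Sparc*, a secreted protein that binds collagen, was at 1809, 2748, 7072, 6873, 13083, 11403, 16058 and 15496 CPM and rose at each step, to W4 by 0.38 ± 0.09. *Lox*, the lysyl oxidase that begins crosslinking, was at 45.8, 72.3, 186, 166.7, 365, 209, 510.4 and 415 CPM and rose to E16.5 (1.82 ± 0.24, adjusted p = 3.31e-04) and to W4 (0.70 ± 0.22, adjusted p = 0.0467). Of 29 members tested, 16 rose and 1 fell to E16.5, 3 rose to P0, and 7 rose and 6 fell to W4. Those that fell to W4 were the prolyl hydroxylase *P4ha3* (-2.20 ± 0.27, adjusted p = 3.16e-04), *Fkbp10*, *Crtap*, *P3h1*, *P3h4* and *Ppib*, which serve the hydroxylation and folding of collagen chains. Without W4 replicate 1 the counts to W4 were 3 higher and 2 lower, and the 7 that rose were 2 without W4 replicate 2 and 3 without either E16.5 library.

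Elastic fibre genes mostly rose to E16.5, and the P0 replicates lay far apart for elastin. This gene (*Eln*) was at 217, 656, 2753, 2162, 10752, 3167, 2643 and 4120.3 CPM in CapFb2a and at 130.9, 171, 419, 316, 2130.3, 712, 3313 and 3465 in CapFb2b. It was above CapFb2b in each library up to P0 and overlapped it at W4. In CapFb2a it rose to E16.5 (2.91 ± 0.45, adjusted p = 8.45e-04) but did not pass the test to P0 (1.54 ± 0.42, adjusted p = 0.0939). *Mfap5*, a microfibril protein, rose at all 3 steps, from 4.95 and 49.4 CPM at E12.5 and E13.5 to 2296 and 2988 at W4. The fibulin-like *Efemp1* went from 163.02 and 302 CPM to 10.8 and 18.0 at E16.5 (-3.70 ± 0.23, adjusted p = 1.62e-06). Of 18 members 12 rose and 1 fell to E16.5, 3 rose to P0, and 7 rose and 2 fell to W4. The first count was 6 without E12.5 and 7 without E16.5 replicate 1. Without P0 replicate 2, 9 rose to P0 and 6 fell to W4, and without either E16.5 library none rose to P0.

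Proteoglycans, among them the small leucine-rich ones that coat collagen fibrils and set their width, mostly rose to E16.5 and to W4. Decorin (*Dcn*) was at 18.99, 602, 4568, 4586, 4306, 7616, 15034 and 16239.7 CPM, lowest at E12.5 and highest in both W4 libraries. It rose to E16.5 (5.62 ± 0.26, adjusted p = 1.57e-07) and to W4 (1.41 ± 0.21, adjusted p = 9.71e-04). Asporin (*Aspn*) was at 2.48, 21.1, 494, 507, 1098, 759, 539 and 582 CPM and rose to P0 before it fell to W4 (-0.71 ± 0.16, adjusted p = 0.0104). Of 15 members 10 rose and 1 fell to E16.5 (median 2.22), 6 rose to P0, and 9 rose and 3 fell to W4. The list also holds *Hspg2*, *Vcan* and *Gpc3*, which are not small leucine-rich proteoglycans. Of these *Hspg2* rose at all 3 steps, *Gpc3* fell to E16.5 and to W4, and *Vcan* fell to W4. The call of *Gpc3* to E16.5 was lost without either E16.5 library and without the cells with *Mki67* or *Top2a*. *Mgp* was at 214, 762, 2989.7, 2803, 3979.6, 3917, 18659 and 22574 CPM and rose to E16.5 (3.05 ± 0.12, adjusted p = 7.54e-08) and to W4 (2.40 ± 0.12, adjusted p = 5.20e-07).

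**Figure D4:**
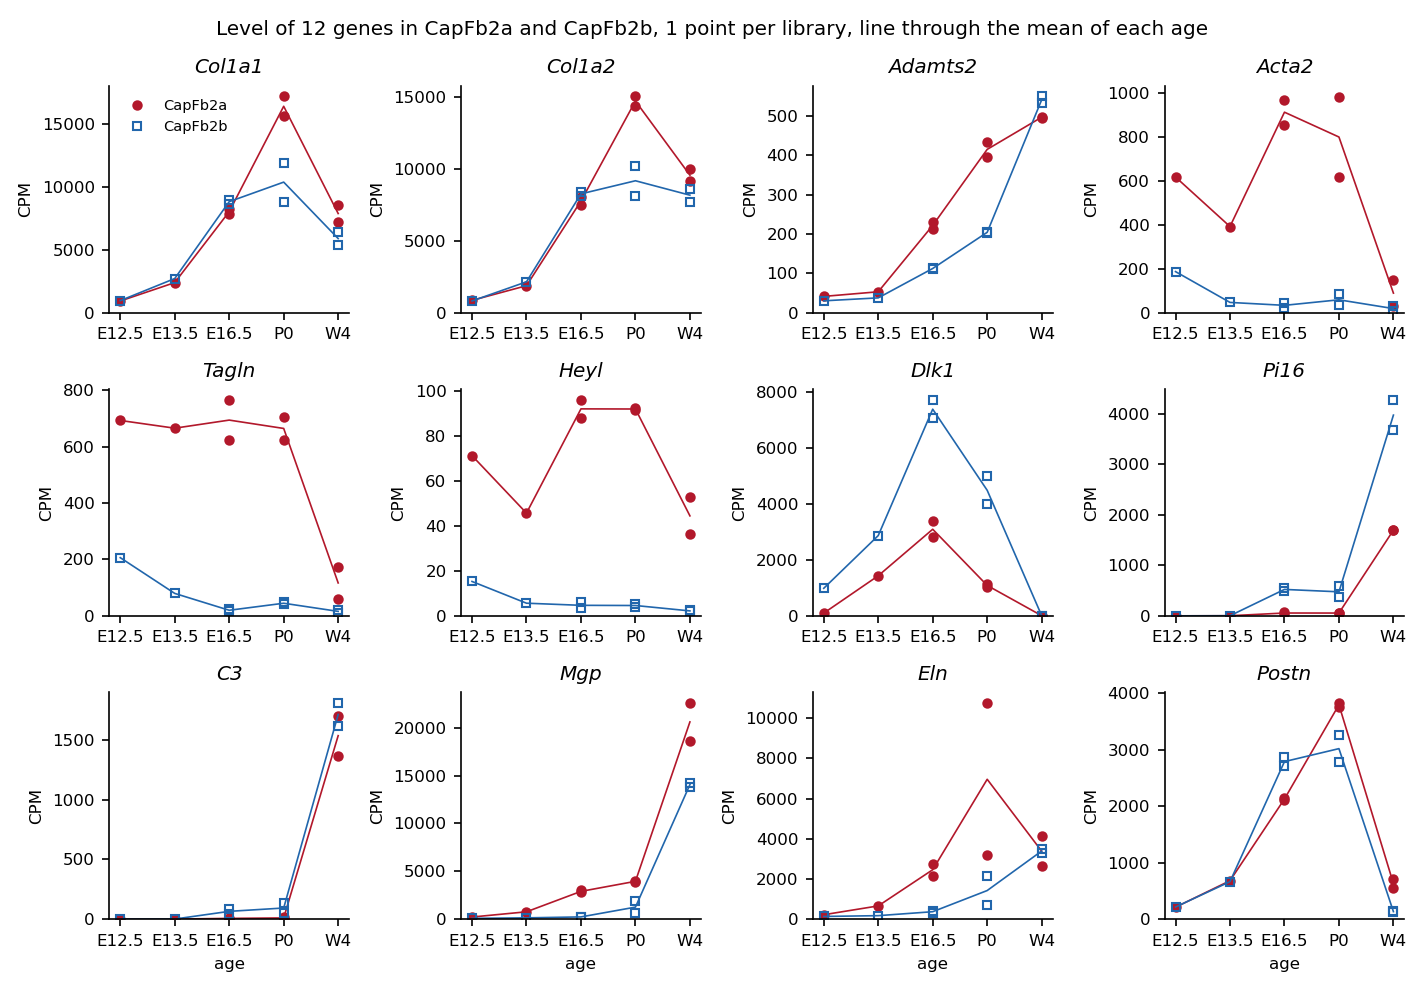
Level in CPM of 12 genes in CapFb2a (filled red circles) and CapFb2b (open blue squares), 1 point per library and a line through the mean of each age. *Acta2*, *Tagln* and *Heyl* lie above CapFb2b at each age, *Col1a1* and *Col1a2* peak at P0, and *Pi16* and *C3* in CapFb2a are highest in both W4 libraries.

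Contractile genes fell in CapFb2a after birth. The sum of the tendon and contractile list was 6263 to 7218 CPM at P0 and 1256 to 1338 at W4 in CapFb2a. It fell in CapFb2b too, being 3539 to 4621 and 368 to 445. The sum also counts matrix genes (next paragraph), of which periostin (*Postn*) was the largest member in CapFb2a at P0. It thus does not measure contractile genes alone. *Acta2* fell from 984 and 616 CPM at P0 to 30.4 and 147.5 at W4 (-3.00 ± 0.43, adjusted p = 8.14e-04), and *Tagln* from 703 and 625 to 60.8 and 172.5 (-2.39 ± 0.31, adjusted p = 4.41e-04). At W4 the shares of cells with either were near those of endothelium, or below them for *Tagln* in replicate 1, and above those of CapFb2b (above). The myosin light chain *Myl9* fell from 477 and 379 CPM to 126 and 195 (-1.36 ± 0.19, adjusted p = 6.94e-04). The tropomyosin *Tpm2* (-1.53 ± 0.20, adjusted p = 4.06e-04) and calponin 1 (*Cnn1*), which had 1 UMI left at W4, fell as well. Enteric smooth muscle actin (*Actg2*) was at 43.2 and 96.2 CPM at P0, where a single cell of replicate 2 held 40.9% of its UMIs, and had no UMI in either W4 library, which makes it at least 40.6-fold lower against a floor of 3 UMIs over both W4 libraries. Neither *Acta2* nor *Tagln* passed the test at the steps before. The values for *Acta2* were 1.10 ± 0.37, adjusted p = 0.0553 to E16.5 and -0.15 ± 0.37, adjusted p = 0.891 to P0.

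The matrix proteins of the same list, which are made in tendon and in tissue under repair, mostly fell with them. Periostin (*Postn*) was at 209.7, 679, 2140.4, 2109, 3759, 3825, 702 and 554 CPM. It rose to E16.5 (2.70 ± 0.13, adjusted p = 1.57e-07) and P0 (0.88 ± 0.12, adjusted p = 0.00303) and fell to W4 (-2.58 ± 0.12, adjusted p = 5.20e-07), with no overlap between any neighbouring ages. *Cthrc1*, a secreted protein that limits collagen deposition, fell to W4 from 693 and 406 CPM to 48.0 and 37.8 (-3.70 ± 0.27, adjusted p = 9.83e-06), and tenascin C (*Tnc*) from 217 and 106.8 to 17.6 and 34.05 (-2.52 ± 0.39, adjusted p = 0.00130). Thrombospondin 4 (*Thbs4*) was the exception at 10.3 and 4.63 CPM at P0 and 198 and 77.2 at W4 (4.04 ± 0.47, adjusted p = 2.28e-04). In all 3 members rose and 1 fell to E16.5, 3 rose to P0, and 1 rose and 9 fell to W4, of 11 tested. Both counts to E16.5 changed when single libraries were left out. The median log2 fold change to W4 was -2.58 (-2.52 with genes absent at W4 at their bound), and the count of 9 was the same with the E16.5 libraries summed.

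Genes shared with pericytes, which line capillaries, were followed as well. The sum of 8 mural markers was 416 to 962 CPM by library in CapFb2a and 118.8 to 331 in CapFb2b. Of the 8, 7 rose to E16.5, and 1 (*Des*) rose and 2 (*Kcnj8* and *Cspg4*) fell to W4. Without E12.5, where the sum was 792 CPM, 3 rose to E16.5. *Heyl* rose to E16.5 (0.90 ± 0.17, adjusted p = 0.00303) and fell to W4 (-1.09 ± 0.19, adjusted p = 0.00248), *Notch3* rose to E16.5 (0.90 ± 0.25, adjusted p = 0.0248) and was at 57.3, 89.9, 81.6 and 46.9 CPM at P0 and W4 (-0.24 ± 0.28, adjusted p = 0.586), and *Hey1* fell to E16.5 from 251 and 75.9 CPM to 17.3 and 10.1 (-3.15 ± 0.34, adjusted p = 7.34e-05). *Jag1* fell to E16.5 (-0.96 ± 0.12, adjusted p = 2.60e-04) and again to W4 (-1.02 ± 0.15, adjusted p = 8.58e-04).

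Markers of adult capsular and adventitial fibroblasts mostly rose to E16.5 and again to W4. *Pi16*, a peptidase inhibitor of adventitial fibroblasts, was at 0.413, 2.41, 80.96, 31.5, 54.8, 56.2, 1702 and 1689 CPM in CapFb2a and at 0.306, 2.68, 553, 494, 584, 367, 4271 and 3674 in CapFb2b. CapFb2a was far below CapFb2b from E16.5 on, and its W4 libraries stood alone among its own. It rose to E16.5 (5.86 ± 0.60, adjusted p = 4.89e-05) and to W4 (4.95 ± 0.30, adjusted p = 2.16e-06), and after thinning was found in 39.5% of 38 and 41 of 82 W4 cells against 8.01 and 11.5% of endothelial cells. *Ly6a* had no UMI at E12.5 and E13.5 and was at 27.5, 9.57, 49.3, 40.7, 1013 and 889.7 CPM from E16.5 to W4. *Clec3b*, which encodes tetranectin, likewise had none before E16.5, where it was at 93.2 and 85.01 CPM and thus at least 121-fold higher against 3 UMIs over both early libraries, and rose to 1253 and 1202 CPM at W4 (2.63 ± 0.17, adjusted p = 3.26e-06). *Dpp4* stayed at 7.88 CPM or less up to P0 and rose to 49.6 and 49.2 CPM at W4 (3.88 ± 0.37, adjusted p = 5.93e-05), where CapFb2b had 200.2 and 187.4. Of 14 members 10 rose to E16.5 (median 2.62, or 2.15 at the bound), 5 rose to P0, and 11 rose to W4 (1.42), with *Creb5* falling (-1.32 ± 0.24, adjusted p = 0.00367).

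Genes of fetal growth, many of them imprinted, mostly fell after birth. Their sum was 9092 to 9340 CPM at P0 and 2316 to 2629 at W4 in CapFb2a, and it fell in CapFb2b too, being 21104 to 21437 and 3555 to 3724. *Dlk1*, a paternally expressed Notch-related protein, was at 97.4, 1434, 3386, 2811, 1154, 1022, 1.60 and 12.1 CPM. The E16.5 libraries were highest, the W4 libraries lowest, and it rose to E16.5 (3.26 ± 0.20, adjusted p = 1.51e-06), fell to P0 (-1.46 ± 0.19, adjusted p = 0.00257) and fell to W4 (-6.96 ± 0.31, adjusted p = 5.20e-07). Its call to P0 was lost in 3 of 16 alternatives. *Mest* was at 463, 1780.3, 1689, 1871, 704, 781, 54.4 and 24.97 CPM and *Plagl1*, a zinc finger factor over other imprinted genes, at 66.03, 279, 299, 306, 241, 213, 14.4 and 12.1, and both fell to W4 (-4.34 ± 0.24, adjusted p = 1.36e-06 and -4.11 ± 0.18, adjusted p = 5.20e-07). The RNA *H19* was at 1623, 2192, 1682, 1408, 1034 and 1022 CPM from E12.5 to P0 and fell to W4 (-2.60 ± 0.16, adjusted p = 3.09e-06). *Hmga2*, a chromatin factor of early embryos, fell before, from 369 and 147 CPM to 4.34 and 6.19 at E16.5 (-5.22 ± 0.23, adjusted p = 1.06e-07). Of 18 members 9 rose and 7 fell to E16.5, 5 fell to P0, and 16 fell and 1 (*Sgce*) rose to W4 (median -2.22).

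The largest falls to E16.5 were those of *Col9a1*, *Tfap2b*, *Nefm* and *Crabp1*. Both early libraries held the cartilage collagen *Col9a1* (157 and 72.9 CPM) and neither E16.5 library did, which is at least 129-fold lower against 3 UMIs over both. This call was lost in 3 of 16 alternatives (largest adjusted p 0.194). The neural crest factor *Tfap2b* was at 262 and 7.23 CPM at E12.5 and E13.5, and had none at E16.5. This fall rests on E12.5, which held 635 UMIs against 12 at E13.5, and without E12.5 the gene was not tested. The neurofilament *Nefm* went from 62.3 and 128 CPM to 0.723 and 0, the retinoic acid binding protein *Crabp1* from 681 and 1018 to 5.06 and 3.38 (-7.43 ± 0.42, adjusted p = 1.62e-06), and *Crabp2* from 111 and 121 to 2.89 and 3.94 (-4.83 ± 0.37, adjusted p = 6.21e-06). *Nefl*, *Adamts18*, *Npnt* and *Tubb3* fell by 5.07 to 6.87 on the log2 scale. The neural crest and glia markers moved with them, from a sum of 17.7 CPM at E12.5 and 90.4 at E13.5 to 2.17 to 3.94 at E16.5. Of 3 tested only *Fabp7* fell, and not without E13.5, and *Sox10* and *Foxd3* had no UMI at E16.5. The cell with the most UMIs held 7.40% of its library's *Tfap2b*, 5.16% of its *Nefm*, 8.41% of its *Nefl* and 4.63% of its *Tubb3* UMIs, and the part of neural cells in these falls was not tested. Among the largest rises to E16.5 besides *Clec3b* were those of the haemoglobin genes *Hbb-bs* and *Hba-a2*, for which 1 cell held 95.6 and 92.0% of the UMIs of E16.5 replicate 2. The calls of both were lost in 3 of 16 alternatives. Further large rises were those of dermatopontin (*Dpt*, 2 UMIs before and 151.1 and 116 CPM at E16.5), the homeobox gene *Meox2* (8.41 ± 0.31, adjusted p = 6.32e-08), the dipeptidase *Dpep1*, the chemokine *Cxcl10*, the fatty acid binding protein *Fabp4*, *Sele* and *Aoc3*.

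Complement and antigen presentation genes rose to E16.5 and again to W4. From P0 to W4 the sums of both lists rose in CapFb2b too. That of complement genes was 675 to 730 CPM at P0 and 5230 to 5527 at W4 in CapFb2a, and 1236 to 1317 and 5197 to 5220 in CapFb2b. That of interferon and antigen presentation genes was 1872 to 2141 and 5963 to 5965 CPM in CapFb2a, and 1715 to 1991 and 4250 to 4281 in CapFb2b. *C3*, the central complement component, was at 0.413, 0, 3.61, 7.88, 14.7, 4.63, 1369.6 and 1703 CPM. Both W4 libraries stood apart from all others, and it rose to W4 (7.21 ± 0.35, adjusted p = 5.20e-07). *C7*, of the membrane attack complex, had 2 UMIs at P0 and was at 138 and 111.97 CPM at W4, where 1 cell of replicate 1 held 32.6% of its UMIs. Of 11 complement members 7 rose to E16.5 (4 without E12.5), 2 to P0 and 10 to W4 (median 2.45), and no gene of the list passed the test in the other direction. The class I chain *H2-D1* was at 0.413, 4.22, 20.2, 20.3, 82.9, 81.3, 1002 and 955 CPM and rose at each step, the last being P0 to W4 (3.59 ± 0.12, adjusted p = 1.90e-07). Of 23 interferon and antigen presentation members 18 rose to E16.5 (median 3.85, or 3.29 at the bound), 2 rose and 1 fell to P0, and 17 rose to W4 (1.69). The class II genes *Cd74* and *H2-Ab1* were at no more than 32.0 CPM in any library. Haematopoietic markers summed to 37.8 and 72.0 CPM at W4 against 17.9 and 23.9 at P0, and of 8 medullary fibroblast markers 6 rose and 1 fell at the same step (median 2.21), with sums of 727 to 912 CPM at P0 and 2747 to 2811 at W4. The part of either in the rise of these lists was not tested.

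Signals to other cells changed with age in both directions. Stromal-derived factor *Cxcl12*, which draws thymocyte progenitors, was at 560.5, 1202, 575, 592, 460.1, 396, 282 and 309 CPM and fell to W4 (-0.51 ± 0.12, adjusted p = 0.0143). *Gdf10*, a TGF-β family member, was at 5.78, 128, 197, 228, 238, 224, 208 and 210.3 CPM, with E12.5 alone low. *Il33* was at 7.84, 21.1, 137.3, 163.3, 91.5, 150.5, 269 and 319 CPM and rose to E16.5 (3.75 ± 0.29, adjusted p = 5.85e-06) and to W4 (1.32 ± 0.22, adjusted p = 0.00198), and *Flt3l*, the ligand for progenitors of dendritic cells, was at 0.413, 0.602, 5.06, 3.94, 2.86, 6.61, 62.4 and 62.8 CPM, so that only the W4 libraries were high (3.84 ± 0.35, adjusted p = 4.63e-05). *Cxcl13*, the B cell chemokine, was at 14.9, 77.7, 372, 566, 3.82, 30.1, 6.40 and 28.7 CPM in CapFb2a. It fell to P0 (-4.91 ± 0.61, adjusted p = 0.00227) and stayed low, while CapFb2b had 58.2, 269.8, 368, 451, 28.4, 184.05, 557 and 2460.1 CPM. A single cell held 38.3% of the *Cxcl13* UMIs of E16.5 replicate 1. Of 32 members 14 rose and 5 fell to E16.5, 2 rose to P0, and 14 rose and 2 fell to W4. The first count was 6 higher without E12.5 and 9 without E16.5 replicate 1, and the last was 9 higher without W4 replicate 2.

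Immediate early genes, which are known to respond to tissue digestion, changed at each step. Of 14 immediate early and heat shock genes 13 rose to E16.5, 10 rose to P0 and 11 fell to W4, with *Hspa1a* and *Hspa1b*, near-identical copies whose reads may be shared, rising to W4. *Fos* was at 688, 1071, 3006, 2664, 6502, 4157, 3480.0 and 3226 CPM and *Nr4a1* at 7.02, 30.7, 99.8, 88.4, 347, 426, 52.8 and 119.5, both highest at P0. Their part in the other changes was not tested. Of 20 ribosomal protein genes 2 rose to E16.5, and none without E12.5 or either E16.5 library. To W4 5 fell, with counts from 0 (without E16.5 replicate 2 or W4 replicate 1) to 11 (without P0 replicate 1), and to P0 none fell but 12 did without P0 replicate 2.

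The largest rise from E16.5 to P0 was that of *Tgfbi*, a TGF-β induced matrix protein, at 4.34 and 3.94 CPM at E16.5 and 201 and 47.6 at P0 (4.97 ± 0.77, adjusted p = 0.00713). Next in order were the Wnt antagonist *Sfrp4* (3.72 ± 0.85, adjusted p = 0.0496), *1500015O10Rik*, *Gm17056* and the carboxypeptidase *Cpz* (3.06 ± 0.23, adjusted p = 2.74e-04). *Cpz* was at 3.71, 3.01, 15.9, 19.7, 169, 121, 60.8 and 44.6 CPM and its call held under all 16 alternatives, while those of *Tgfbi* and *Sfrp4* were lost in 3 and 7. *Fabp5*, a fatty acid binding protein, fell (-1.92 ± 0.18, adjusted p = 6.26e-04), from 792 and 634 CPM to 154 and 212. *Stmn1*, a tubulin-binding protein of dividing cells, fell from 282 and 303 CPM to 99.1 and 126 (-1.34 ± 0.15, adjusted p = 0.00183) and lost its call in 1 alternative. Over the 409 genes of all lists, 54 rose and 12 fell at this step, and without E16.5 replicate 2 1 rose and none fell. Without E16.5 replicate 1 3 rose and 1 fell, and without P0 replicate 2 109 rose and 54 fell, so the counts to P0 given above for single lists rest on these libraries.

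Among the largest rises to W4 besides *C7*, *C3* and *Pi16* were those of the glucocorticoid-activating enzyme *Hsd11b1*, at 5.54 and 5.29 CPM at P0 and 446 and 294 at W4 (6.08 ± 0.27, adjusted p = 5.20e-07), and of the matrix protein *Cilp* (6.09 ± 0.30, adjusted p = 5.73e-07), for which CapFb2a was first of the 19 subtypes. The class I gene *H2-Q7* (5.61 ± 0.35, adjusted p = 3.09e-06), the carboxypeptidase relative *Cpxm2* (5.42 ± 0.43, adjusted p = 1.66e-05) and the leukotriene C4 synthase gene *Ltc4s* (5.10 ± 0.41, adjusted p = 1.77e-05) rose as well. *Inmt* rose more than any of these (7.61 ± 0.50, adjusted p = 4.19e-06). It had 2 UMIs at P0 and was at 56.0 and 58.3 CPM at W4, but 54.5% of the UMIs of W4 replicate 2 came from 1 cell. The metalloproteinase *Mmp3* was at 19.2 and 129 CPM at W4, with 50.3% of replicate 2 from 1 cell, and its call was lost in 1 alternative. Among the falls were the angiotensin receptor gene *Agtr2* (-6.07 ± 0.28, adjusted p = 5.20e-07), from 138 and 150.5 CPM to 3.20 and 1.51, and the Hedgehog antagonist *Hhip* (-4.21 ± 0.32, adjusted p = 1.24e-05). *C1qtnf3* fell by 4.86 on the log2 scale, yet P0 replicates had 373 and 14.9 CPM, and 7 of 16 alternatives lost the call.

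**Figure D5:**
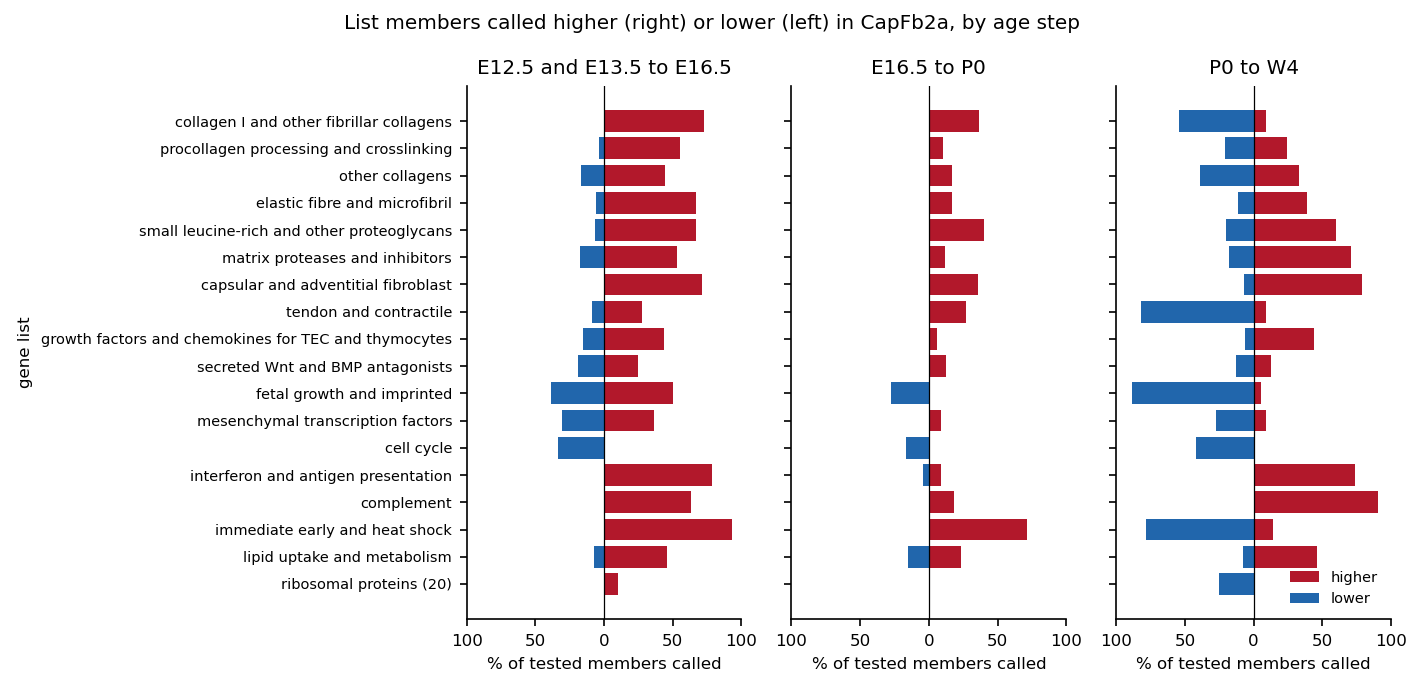
Percent of the tested members of each gene list called higher (bars to the right) or lower (to the left) in CapFb2a at each of the 3 age steps. Complement, antigen presentation and capsular fibroblast genes extend to the right at the first and last step, and fetal growth and contractile genes extend to the left at the last.

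The age courses of CapFb2a and CapFb2b were compared directly, with library as a block and the labels taken as given, although these had been made from the same counts. The block takes both subtypes of a library as drawn from the same mix of animals. At E12.5, pooled from 2 litters, 1.89% of CapFb2a and 22.7% of CapFb2b cells held a UMI of a Y-linked gene. The part of this gap in the differences in course was not tested. Of 13107 genes 1128 (8.61%) differed in course, 654 without E16.5 replicate 1, 684 without replicate 2 and 706 without W4 replicate 2. *Cxcl13* led (adjusted p = 7.82e-11), followed by *H19* (adjusted p = 1.32e-08) and *Eln* (adjusted p = 2.25e-08). *H19* lay near CapFb2b at E12.5 and E13.5 (1623 and 2192 CPM against 1663 and 1646) and then at 1682, 1408, 1034 and 1022 CPM against 3286, 2908, 3776 and 3794 from E16.5 to P0, below it in each of these libraries. *Postn* was below CapFb2b at E16.5 and above it at P0, and at W4 was at 702 and 554 CPM against 117 and 146.4 (adjusted p = 1.89e-07). *Meox1* was lower than CapFb2b at E12.5 and E13.5 (14.0 and 14.5 CPM against 58.5 and 42.6) and higher from E16.5 on, with 118 and 169 CPM against 13.6 and 16.2 at W4 (adjusted p = 1.89e-07). Of 11 fibrillar collagens 7 differed in course, of 12 tendon and contractile genes 9, of 14 capsular fibroblast genes 12, and of 23 antigen presentation genes 6. Among signs of cell state 10 of 14 immediate early and heat shock genes and 19 of 20 ribosomal protein genes differed in course as well, and their part in the other differences was not tested.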

How the data were processed

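The deposited count table held the UMIs of 22231 genes in single cells, and the deposited metadata gave each cell its library and subtype. The authors sorted live Ter119-CD45-EpCAM- cells, loaded 18000 per library on the Chromium 3′ platform and counted UMIs with Cell Ranger 3.1.0. They kept singlets with over 1000 genes and under 5% mitochondrial UMIs, removed CD45+ and TEC clusters and clusters from a single replicate, integrated and clustered the rest in Seurat at a resolution of 0.8, and transferred labels between datasets. The lowest gene number found per library was 999 to 1021. Builds mm10 and GRCh38 are named in the submitters' processing notes, and the build behind these counts is not given in the sources used here. As cells had been labelled from these counts, differences in level between CapFb2a and other subtypes were described and not tested, and the test of age courses against CapFb2b takes the labels as given. Doublets were treated as the authors left them.

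UMIs were summed over the CapFb2a cells of each library with at least 20 such cells, and tested with edgeR 4.0.16 (R 4.3.3, filterByExpr, TMM factors, quasi-likelihood F test, age as a factor, all 8 libraries in 1 fit so that the single libraries of E12.5 and E13.5 take the spread of the replicated ages). Adjusted p were Benjamini-Hochberg over all genes tested, with a threshold of 0.05. The comparison with the age course of CapFb2b added library as a block. The cell numbers of all 19 subtypes went through an edgeR fit of their own, with the labelled cells of a library as offset. Single values per library were tested by exact permutation of the one-way F statistic over ages (two-sided by construction, scipy 1.17.1). DESeq2 1.42.0, other size factors, no filter, 50 cells per library, a replicate block, and leaving out each library were tried. Added after seeing the data were fits with the E16.5 libraries summed, and without cells rich in *Hbb-bs* or *Col2a1*. The edgeR test of age in CapFb2a, for the step from P0 to W4, and the permutation test were checked on simulated data. The test of age courses, the fit of cell numbers and DESeq2 were not.

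CapFb2a and the 27 gene lists were chosen with earlier results of these data known, and the lists are thus no independent evidence. Genes were named by rule: for each step the 10 rising and 10 falling most among genes that passed, with a mean of at least 50 CPM in the higher age and no overlap between ages; the 10 with the smallest p in the age course; the 15 highest and 10 lowest log2 ratios of CPM + 1 against CapFb2b with 1 sign in every library; and examples from the lists. Levels by subtype used libraries with at least 5 cells. Other libraries of the series (bulk samples and a further single-cell experiment) were not used here, and some genes that meet the naming rule are not reported here.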

Additional observations from a re-analysis of the deposited data

Results flagged for a closer look

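The age courses of CapFb2a and CapFb2b differed most in 10 genes, by edgeR's quasi-likelihood test of the difference itself with library as a block. *Cxcl13* (adjusted p = 7.82e-11) was at 14.9, 77.7, 372, 566, 3.82, 30.1, 6.40 and 28.7 CPM in CapFb2a and at 58.2, 269.8, 368, 451, 28.4, 184.05, 557 and 2460.1 in CapFb2b, so that both subtypes were alike at E16.5 and far apart at W4. *H19* (adjusted p = 1.32e-08) was at 3776 and 3794 CPM in CapFb2b at P0 and at 1034 and 1022 in CapFb2a. *Eln* (adjusted p = 2.25e-08) was at 2753 and 2162 CPM in CapFb2a against 419 and 316 in CapFb2b at E16.5. The interferon-induced membrane protein gene *Ifitm1* (adjusted p = 4.09e-08) was at 278 and 439 CPM at W4 against 25.1 and 33.9 in CapFb2b, after E12.5 values of 23.9 and 19.3.

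*Itm2a* (adjusted p = 6.04e-08) was at 334, 577, 1032, 1066, 855, 1019, 509 and 374 CPM in CapFb2a and at 584, 908, 5305, 4720.1, 3959, 4026, 719.8 and 553 in CapFb2b, several-fold lower in CapFb2a at E16.5 and P0. *Clec3b* (adjusted p = 1.68e-07), *Ly6a* (adjusted p = 1.77e-07) and the serine protease gene *Htra3* (adjusted p = 1.77e-07) were high in CapFb2b from E16.5 and in CapFb2a mainly at W4. At E16.5 *Clec3b* was at 93.2 and 85.01 CPM against 824 and 865, *Ly6a* at 27.5 and 9.57 against 495 and 541 and *Htra3* at 111 and 114 against 443 and 386. *Meox1* (adjusted p = 1.89e-07) and *Postn* (adjusted p = 1.89e-07) were higher in CapFb2a at W4, as described above. With no library block *Cxcl13* (adjusted p = 0.0724) and *Eln* (adjusted p = 0.117) did not pass.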

How the results depend on the processing

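The share of CapFb2a among NETS was called in the reported test (adjusted p = 0.0201) and not with a replicate block (0.068) or by exact permutation (0.169), and without 1 library its adjusted p ran from 0.00385 to 0.120. The exact p of its share of CapFb2 ran from 0.00952 to 0.0286 and that of the depth ratio from 0.0476 (without P0 replicate 1) to 0.171. The share of cycling cells had an exact p = 0.140 with 1000 UMIs per cell, and 0.00952 without any 1 library. With DESeq2 3295 genes changed over age, 1724 to E16.5, 1192 from P0 to W4 and 474 in course, against 5200, 2925, 2284 and 1128. With the E16.5 libraries summed the step to E16.5 had 1925 calls and that to P0 40. With no filter on low counts the step to P0 had 935 and the course 1847, and with at least 50 cells per library, which removes W4 replicate 1, the step to W4 had 1370. Without 1 library the calls ran from 1438 to 3732 to E16.5, from 10 to 1030 to P0, from 1021 to 2688 to W4 and from 654 to 1173 in course. The cause was not tested. Replicate numbers did not pair the samples (correlations of deviations over 3274 genes 0.04, 0.11 and -0.01), and a replicate block gave 4735 genes over age, 2522 to E16.5, 400 to P0 and 2325 to W4. In place of the library block it left 648 genes in course, and no library block left 487. Of 60 genes named for a step none changed direction and 38 kept their side of the threshold under every alternative in which they were tested, as did 8 of 10 named for their course. Most losses were at the step from E16.5 to P0, where only *Fabp5*, *Cpz* and *Gm17056* kept their calls throughout. Lists were stable to different degrees. Among 32 growth factors and chemokines 14 rose to E16.5 and without E12.5 6 did, and among 18 other collagens 7 fell to W4 and 1 did without either W4 library. Averaging the CPM of each cell in place of summing UMIs moved 15 of 40 levels (8 genes at 5 ages) by more than the SD between replicates or, at E12.5 and E13.5, beyond the counting interval. For example, the level of Col1a2 at W4 went from 9568 to 8284 CPM. Ratios to CapFb2b and ranks among subtypes were not recomputed this way. The count of cells limits W4 replicate 1 (38 cells) most.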

Other observations

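CapFb2a was the first of the 19 subtypes for 104 of 3274 genes at 50 CPM or more. Such counts were not made for the other subtypes, so this number does not measure how distinct CapFb2a is. The Wnt-induced matrix protein gene *Wisp1* was at 111.98 ± 61.9 CPM (SD, n = 8 libraries), with MedFb2a next at 35.8, and by library at 42.9, 80.7, 148.2, 154, 208, 154, 64.0 and 43.9. It rose to E16.5 (1.56 ± 0.19, adjusted p = 1.45e-04) and fell to W4 (-1.79 ± 0.20, adjusted p = 1.98e-04). The protease inhibitor *Timp1* was at 33.4, 51.8, 89.6, 70.4, 95.8, 121.7, 395 and 395 CPM and rose to W4 (1.88 ± 0.16, adjusted p = 3.03e-05). *Clca3a2* was the gene furthest above the next subtype (50.8 ± 97.3 CPM against 2.64 in Pc), but its level was 286 CPM in P0 replicate 2 and 0.757 to 49.5 CPM in the other libraries, and after drawing 2000 UMIs per cell it was found in 10.3% of CapFb2a cells there and in 0 to 4.26% of those of the other libraries.

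Transcripts counted as *Trac*, the constant region of the T cell receptor α chain, were at 17.7, 41.6, 198, 202, 29.4, 115.4, 14.4 and 6.81 CPM. After drawing 2000 UMIs per cell they were found in 3.77, 6.98, 12.8, 14.2, 4.85 and 13.4% of CapFb2a cells from E12.5 to P0, and in 0% at W4. *Cd3e*, a defining T cell gene, was found in 0 to 2.63% of CapFb2a cells, and endothelium held *Trac* in 0 to 1.87% of cells. VSM cells shared the signal, with *Trac* in 10.2% of cells at E12.5, 1.11% at E13.5, 9.57 to 11.8% at E16.5, 7.37 to 9.22% at P0 and 7.92 to 8.67% at W4. The source of these UMIs was not tested.

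At E12.5, 1.89% of CapFb2a cells (3 of 159) held a UMI of *Ddx3y*, *Eif2s3y*, *Uty* or *Kdm5d*, against 22.7% of CapFb2b, 21.7% of CapFb1a and 57.5% of NC cells in the same library, while Pc and VSM had 3.08 and 3.39%. This library was pooled from 2 litters, and the part of this difference in the other E12.5 values, such as the share of CapFb2a, was not tested.

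Metabolic genes changed too. Lipoprotein lipase (*Lpl*) was at 10.7, 6.02, 96.9, 123.9, 191.1, 259.6, 1896 and 1585 CPM and rose at each step, the last being P0 to W4 (2.97 ± 0.18, adjusted p = 2.16e-06). *Apoe*, which carries lipid between cells, was at 41.3, 136.8, 159.7, 131.2, 348, 729, 1209.6 and 990.3 CPM and rose to P0 (1.94 ± 0.29, adjusted p = 0.00628). Of 13 lipid genes tested 6 rose and 1 fell to E16.5, 3 rose and 2 fell to P0, and 6 rose and 1 fell to W4. The calls to P0 of this list and of the matrix proteases and inhibitors (next) rest on having both E16.5 libraries. Of 17 matrix protease and inhibitor genes 9 rose and 3 fell to E16.5, 2 rose to P0, and 12 rose and 3 fell to W4, with gelatinase A (*Mmp2*) at 182.01, 97.6, 123, 114, 282, 206, 640.0 and 856 CPM. Of 33 mesenchymal transcription factors 12 rose and 10 fell to E16.5, 3 rose to P0, and 3 rose and 9 fell to W4. Both counts to E16.5 were lower without E12.5, and fewer fell to W4 without W4 replicate 2. The calls to P0 rest on having both E16.5 libraries, and more genes were called at that step without P0 replicate 2. *Twist1* was at 139.9, 166, 99.0, 106.97, 105, 94.2, 120.002 and 106 CPM and passed at no step. In CapFb2a, which leaves out the proliferating cells named Pr, 8 of 24 cell cycle genes fell to E16.5, 4 to P0 and 10 to W4, and none rose. The first count was 4, with 1 rising, without E13.5, and 5 without E16.5 replicate 2 or without the cells with *Mki67* or *Top2a*. The second was 1 without E16.5 replicate 1 and 0 without replicate 2, and the last was 4 without W4 replicate 2.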
